A study of Mus musculus with 39 samples.

Results

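Foetal liver erythroblasts cultured for 30 h in differentiation medium (MFL 30 h) were compared with cells taken before such culture (MFL 0 h). The method was NG Capture-C, which reads out the DNA fragments ligated to chosen viewpoints after crosslinking. The comparison used every library labelled MFL 0 h or MFL 30 h that was captured with the α-globin, β-globin and CTCF panel. These were 12 of the 39 samples of the series, namely 3 biological replicates at each time, each sequenced in a NextSeq run and a MiSeq run that were averaged. All cells were labelled wild type and C57Bl6. Livers had been disaggregated, progenitors expanded in culture for about a week, Ter119-positive cells removed, and the rest sorted for CD44 and size before the time course began. Cells of both times had received BrdU during the last part of the culture. MFL 0 h cells were described as early erythroblasts with little globin transcription and MFL 30 h cells as erythroblasts near the peak of it. Each population can hold cells at several stages, so a change in every cell and a change in the mix of cells cannot be told apart. The files hold no expression values, and the cell type was not checked against markers.

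Each library held 8 viewpoints, all DpnII fragments of mouse build mm9. Hba.1 (chr11:32182969-32183821) and Hba.2 (chr11:32195804-32196638) lie over the 5′ parts of the adult α-globin genes Hba-a1 and Hba-a2. HS39_5 (chr11:32137176-32137426) lies upstream of them, overlaps an exon of Nprl3, and is a site of the insulator protein CTCF in the study. Hbb.b1 (chr7:110961967-110962817) and Hbb.b2 (chr7:110975976-110976456) lie in the adult β-globin genes. The GENCODE annotation of this build gives these genes the opposite names, so that Hbb.b1 lies in its Hbb-b2 and Hbb.b2 in its Hbb-b1. Viewpoint names follow the labels here, and promoter windows follow GENCODE. HS60 (chr7:111061643-111062050) and HS90 (chr7:111091378-111092626) lie in no annotated gene, on the far side of the β-globin locus control region as seen from the genes. Slc25A37 (chr14:69902454-69903469) overlaps an exon of Slc25a37, which encodes mitoferrin, the importer of iron into mitochondria for haem synthesis.

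As background, haemoglobin is made of α and β chains whose genes sit on different chromosomes and are switched on together late in red cell formation. The α-globin genes are driven by enhancers inside introns of the neighbouring gene Nprl3, of which R2 is the strongest and R1 the next. The β-globin genes are driven by the locus control region, a row of DNase hypersensitive sites that includes HS1 and HS2. CTCF-bound sites flank the contact domains in which these genes and enhancers lie. The fragments whose contacts carry the comparison are printed here from mm9, on the plus strand, with matches to a motif in capitals. For HS2, HS1 and R2 the capitals mark TGACTCA, the core of the sites bound by NF-E2 and related erythroid factors, and HS1 shows it as its reverse complement TGAGTCA. For R1 they mark AGATAA, the kind of site that GATA factors such as Gata1 recognise. For the viewpoints HS39_5 and HS60, shown because their contacts did not follow those of the genes, they mark the DpnII cut site, at which ligation was read, and HS60 is printed from its start.
HS2, chr7:111009550-111009749: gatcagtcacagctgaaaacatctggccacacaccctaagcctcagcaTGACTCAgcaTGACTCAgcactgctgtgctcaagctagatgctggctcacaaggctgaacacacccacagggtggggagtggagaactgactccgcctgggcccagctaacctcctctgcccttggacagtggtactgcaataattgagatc
HS1, chr7:111007745-111007930: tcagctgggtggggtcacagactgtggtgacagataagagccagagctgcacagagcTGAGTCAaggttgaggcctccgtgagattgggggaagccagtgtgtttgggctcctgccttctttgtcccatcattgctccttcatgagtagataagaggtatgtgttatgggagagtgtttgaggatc
R2, chr11:32151060-32151179: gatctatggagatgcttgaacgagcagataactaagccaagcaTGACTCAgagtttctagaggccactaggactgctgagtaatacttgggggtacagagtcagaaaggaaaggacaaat
R1, chr11:32145716-32145836: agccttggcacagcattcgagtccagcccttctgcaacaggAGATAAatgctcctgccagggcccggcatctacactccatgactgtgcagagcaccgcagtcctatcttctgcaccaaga
HS39_5, chr11:32137176-32137426: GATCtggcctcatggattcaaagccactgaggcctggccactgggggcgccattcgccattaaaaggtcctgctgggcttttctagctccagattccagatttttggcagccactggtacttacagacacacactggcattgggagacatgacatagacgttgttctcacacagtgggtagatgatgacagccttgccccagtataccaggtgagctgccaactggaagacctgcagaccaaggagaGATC
HS60, chr7:111061643-111061842: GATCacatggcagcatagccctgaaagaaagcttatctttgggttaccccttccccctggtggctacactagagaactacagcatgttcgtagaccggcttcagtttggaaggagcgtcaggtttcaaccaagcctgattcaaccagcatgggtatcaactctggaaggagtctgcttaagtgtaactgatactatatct

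Both strands of each whole fragment were searched. TGACTCA was found 2 times in HS2, 2 times in R2 and 1 time in HS1, and 3.14%, 13.1% and 6.63% of the windows of those lengths on the same chromosome hold it. AGATAA was found 3 times in R1, 3 times in HS1, 1 time in R2 and 0 times in HS2, and 55.2% of windows of the length of R1 hold it. A match describes the letters only and says nothing on binding in these cells.

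The deposited values were reads per 100000 reporter reads of a viewpoint. Whole reads could be recovered from them, so the depth is known. In the NextSeq runs a viewpoint had from 10684 to 85525 of them at 0 h, and from 3780 to 35288 at 30 h. The medians were 24322.5 and 11065, so the later time was measured with fewer reads. The 2 runs of each replicate agreed within counting noise in their 5 kb bins of cis reads and stand for 1 sample. Their cis part was not alike. From HS90 in 0 h replicate 1, 29719 of 52083 reads were cis and beyond 1 kb in the NextSeq run. In the MiSeq run these were 4168 of 5866, so an averaged cis share joins unlike runs. Paired viewpoints share sequence. The Hba.1 and Hba.2 fragments were 99.6% identical over 835 aligned bases and the Hbb.b1 and Hbb.b2 fragments 97.5% over 481, so some reads of a pair may be assigned to either viewpoint, and the values of a pair are not independent. Contacts 1 to 10 kb from a labelled fragment were higher in its own column than in the column of its partner in 6 of 6 libraries for Hba.2, Hbb.b1, Hbb.b2, HS60 and HS90, and in 5 of 6 for Hba.1. With 3 replicates against 3, the two-sided exact permutation test cannot go below 0.1, and every exact p of 0.1 given below stands for groups that did not overlap.

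The cis share is the percentage of a viewpoint's interactions that fall on its own chromosome. It overlapped between the times at 8 of 8 viewpoints. Hba.1 had 54.4%, 56.1% and 60.2% at 0 h and 50.6%, 49.9% and 61.0% at 30 h. Replicate 3 was the highest of its time at both times, and the 30 h replicates spread more widely than the 0 h ones. At Hbb.b1 the share was 58.3% ± 2.63 (SD, n = 3) at 0 h and 52.4% ± 6.82 at 30 h, at HS39_5 64.8% ± 2.38 and 60.3% ± 4.22, and at HS90 67.0% ± 2.73 and 67.4% ± 5.11. The smallest exact p was 0.3, with an adjusted p of 0.8 over the 8 viewpoints. All further values are shares of cis interactions, with fragments within 1 kb of any viewpoint left out. Such shares add up to a fixed total, so a gain near the viewpoint is matched by a loss farther away.

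Within the chromosome, interactions of the globin genes and of Slc25a37 were closer to the viewpoint at 30 h. The local share, the percentage of cis interactions within 100 kb, was 52.8%, 54.2% and 54.5% at 0 h and 67.0%, 65.9% and 65.3% at 30 h from Hba.1. Every 30 h replicate lay above every 0 h replicate, and the means were 53.8% ± 0.935 and 66.1% ± 0.902. Hba.2 gave 51.9% ± 0.906 and 64.3% ± 0.557. Slc25A37 had 49.9%, 52.7% and 50.0% at 0 h and 61.1%, 60.5% and 57.3% at 30 h, again without overlap. Hbb.b1 had 42.2%, 44.9% and 41.8% at 0 h and 50.5%, 51.8% and 52.4% at 30 h. Hbb.b2 had 47.8%, 50.3% and 44.6% and then 52.9%, 54.8% and 55.3%. Both β-globin viewpoints thus separated by time, with the wider spread at 0 h.

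The viewpoints outside the genes differed less between the times. HS39_5 had local shares of 58.1%, 59.4% and 60.4% at 0 h and 64.5%, 63.4% and 62.5% at 30 h. HS90 had 29.8%, 29.1% and 29.2% and then 32.1%, 31.5% and 30.1%, while HS60 overlapped, with 36.5% ± 1.45 and 37.9% ± 1.60. In all, 7 of 8 viewpoints did not overlap (exact p = 0.1 each, adjusted p = 0.114 over the 8 viewpoints). The log2 ratio of the mean Hba local share to the HS39_5 local share in the same libraries went from -0.17 ± 0.0054 to 0.04 ± 0.0069, with no overlap. The same ratio of the mean Hbb share to HS60 went from 0.31 ± 0.051 to 0.48 ± 0.089, also with no overlap, and that of Hbb to HS90 overlapped (exact p = 0.2). These ratios were chosen after their values were seen. They were among 13 contrasts, and the smallest adjusted p was 0.26 by exact permutation. When local contacts were taken as a share of all interactions, as deposited, the difference stayed without overlap at Hba.2 (4.98 percentage points higher at 30 h) and Slc25A37 (4.84). It overlapped at Hba.1 (4.75), Hbb.b1 (1.71), Hbb.b2 (0.550) and HS90 (1.31), and its sign turned at HS39_5 (-0.281) and HS60 (-0.0484).

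**Figure D1:**
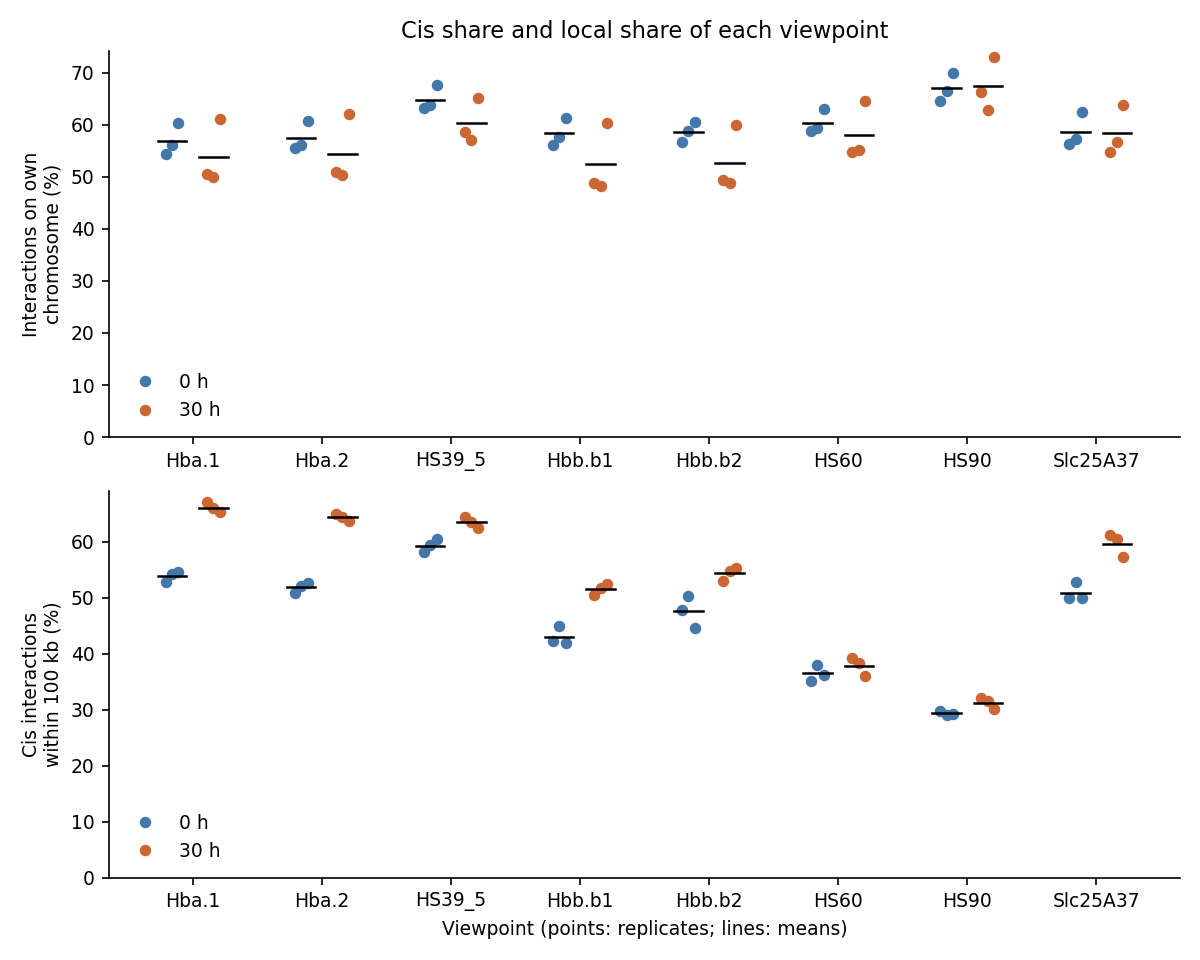
Cis share (upper panel, percent of all interactions) and local share (lower panel, percent of cis interactions within 100 kb) of the 8 viewpoints, with 1 point per replicate at 0 h and 30 h and a line at the mean. In the lower panel the Hba.1 points move from 52.8 to 54.5% at 0 h to 65.3 to 67.0% at 30 h, and only HS60 overlaps between the times.

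The fall of contact with distance was described in 8 bands, from 1 kb to beyond 10 Mb. From Hba.1 the nearest band, 1 to 10 kb, held 15.1% ± 0.777 of cis interactions at 0 h and 22.5% ± 1.05 at 30 h, and the next, 10 to 30 kb, 18.9% ± 0.614 and 23.4% ± 1.48. The band of 30 to 100 kb overlapped, at 19.8% and 20.2%. All 5 bands beyond 100 kb were lower at 30 h without overlap, and the one beyond 10 Mb held 24.4% ± 1.42 and 19.2% ± 0.174. From Slc25A37 all 8 bands separated, the nearest 3 higher and the farthest 5 lower at 30 h. Over the viewpoints and bands, with the slope and the median distance, 56 of 80 values did not overlap, and the smallest adjusted p by exact permutation was 0.143.

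From Hbb.b2 the nearest 3 bands were all higher at 30 h without overlap, going from 10.5% to 12.3%, from 12.9% to 14.8% and from 24.2% to 27.1%. From Hbb.b1 the band of 30 to 100 kb, which reaches the locus control region, held 24.0% ± 0.475 at 0 h and 29.2% ± 0.437 at 30 h, while the nearest band overlapped at 7.03% and 8.18%. The bands of 0.3 to 1 Mb (5.20% and 3.21%) and 1 to 3 Mb (9.95% and 7.03%) were lower at 30 h without overlap, and the bands beyond 3 Mb overlapped. HS60 and HS90 both changed near the viewpoint, and beyond 10 Mb only HS90 did so without overlap. HS60 gained in the nearest band, from 10.0% to 14.1%, and lost between 30 and 100 kb, from 15.9% to 13.4%, and between 100 and 300 kb, from 16.3% to 14.5%. HS90 gained in the nearest band, from 11.4% to 13.4%, lost between 100 and 300 kb, from 20.7% to 17.2%, and gained beyond 10 Mb, from 19.7% to 23.2%. HS39_5 overlapped beyond 10 Mb, at 18.8% and 19.0%.

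The median distance of a cis interaction gives the same values in 1 number. It was 75.8, 68.5 and 67.3 kb at 0 h and 32.9, 32.7 and 33.3 kb at 30 h from Hba.1. It was 498, 216 and 487 kb at 0 h and 96.4, 82.7 and 82.8 kb at 30 h from Hbb.b1, where the median lies on a flat part of the curve and the 0 h replicates spread widely. Means went from 88.1 to 45.0 kb at Hba.2, from 180 to 55.7 kb at Hbb.b2, from 89.4 to 40.7 kb at Slc25A37 and from 66.7 to 55.7 kb at HS39_5, each without overlap. HS90 went the other way, from 298 ± 22.6 to 337 ± 18.8 kb without overlap, and HS60 overlapped. The slope of log10 contact density on log10 distance from 10 kb to 10 Mb was steeper at 30 h at Hba.1 (-1.24 to -1.36), Hba.2 (-1.24 to -1.38), HS39_5 (-1.27 to -1.34), Hbb.b1 (-1.10 to -1.17) and Slc25A37 (-1.11 to -1.17), without overlap, and overlapped at Hbb.b2, HS60 and HS90.

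**Figure D2:**
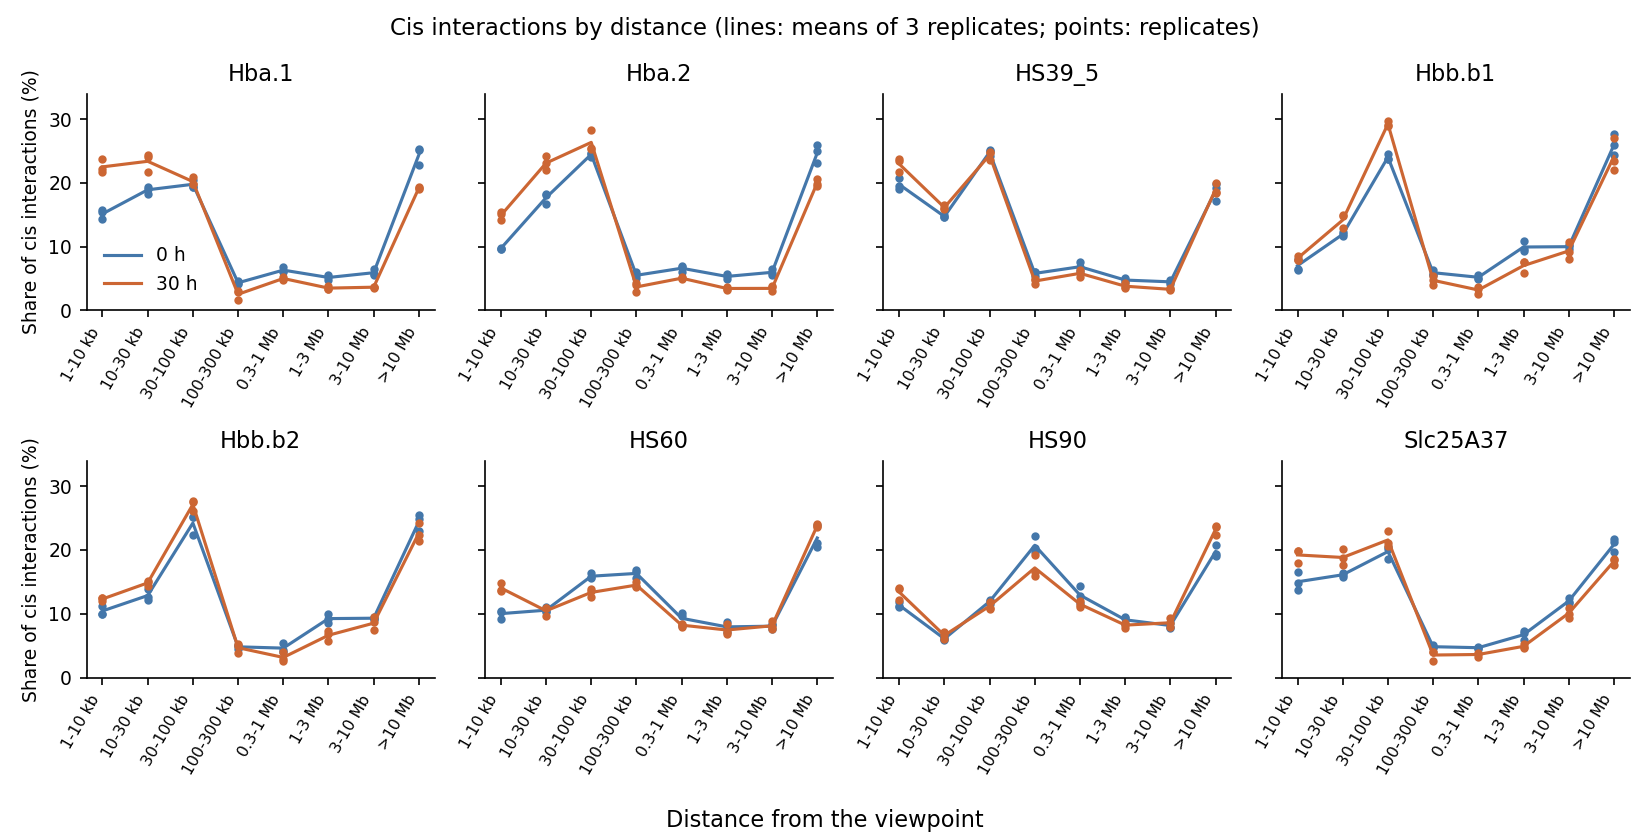
Percentage of cis interactions in 8 bands of distance from each viewpoint at 0 h and 30 h, with lines through the means and 1 point per replicate. From Hba.1 the band of 1 to 10 kb goes from 15.1% to 22.5% and the band beyond 10 Mb from 24.4% to 19.2%.

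The α-globin domain is the 63.7 kb interval that a probe of the study's imaging covered, which holds HS39_5, the enhancers and both α-globin genes. From Hba.1 it took 40.7%, 41.9% and 41.0% of cis interactions at 0 h and 54.8%, 54.7% and 53.1% at 30 h. From Hba.2 it took 38.8%, 39.6% and 39.5% and then 53.8%, 53.3% and 51.0%. The replicates of a time lay within a few percentage points of each other and the times were far apart, and both differences stayed without overlap as deposited (5.54 and 5.86 points of all interactions). The log2 ratio of the Hba.1 share to the Hba.2 share was 0.07 ± 0.013 at 0 h and 0.04 ± 0.016 at 30 h and overlapped (exact p = 0.2).

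Of the flanks of the domain, none was higher at 30 h without overlap from the α-globin genes. The flank of the same length upstream fell from 7.38% ± 0.286 to 6.27% ± 0.477 from Hba.1 and from 7.83% ± 0.222 to 6.36% ± 0.779 from Hba.2, without overlap, and the downstream flank overlapped from both. HS39_5, at the upstream end of the domain, showed another pattern. Its share in the domain was 17.3%, 18.5% and 20.2% at 0 h and 20.5%, 20.2% and 19.9% at 30 h, and overlapped. Its share in the upstream flank was 30.3%, 30.2% and 29.0% and then 32.5%, 32.8% and 31.7%, higher at 30 h without overlap. From Hba.2 the gain within 100 kb lay on the side of the enhancers, where the share went from 43.7% ± 0.487 to 55.3% ± 1.02, while the other side overlapped at 8.15% and 8.99%. From Hba.1, which has Hba-a2 on its other side, both sides gained, from 39.5% to 47.0% and from 14.3% to 19.0%.

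**Figure D3:**
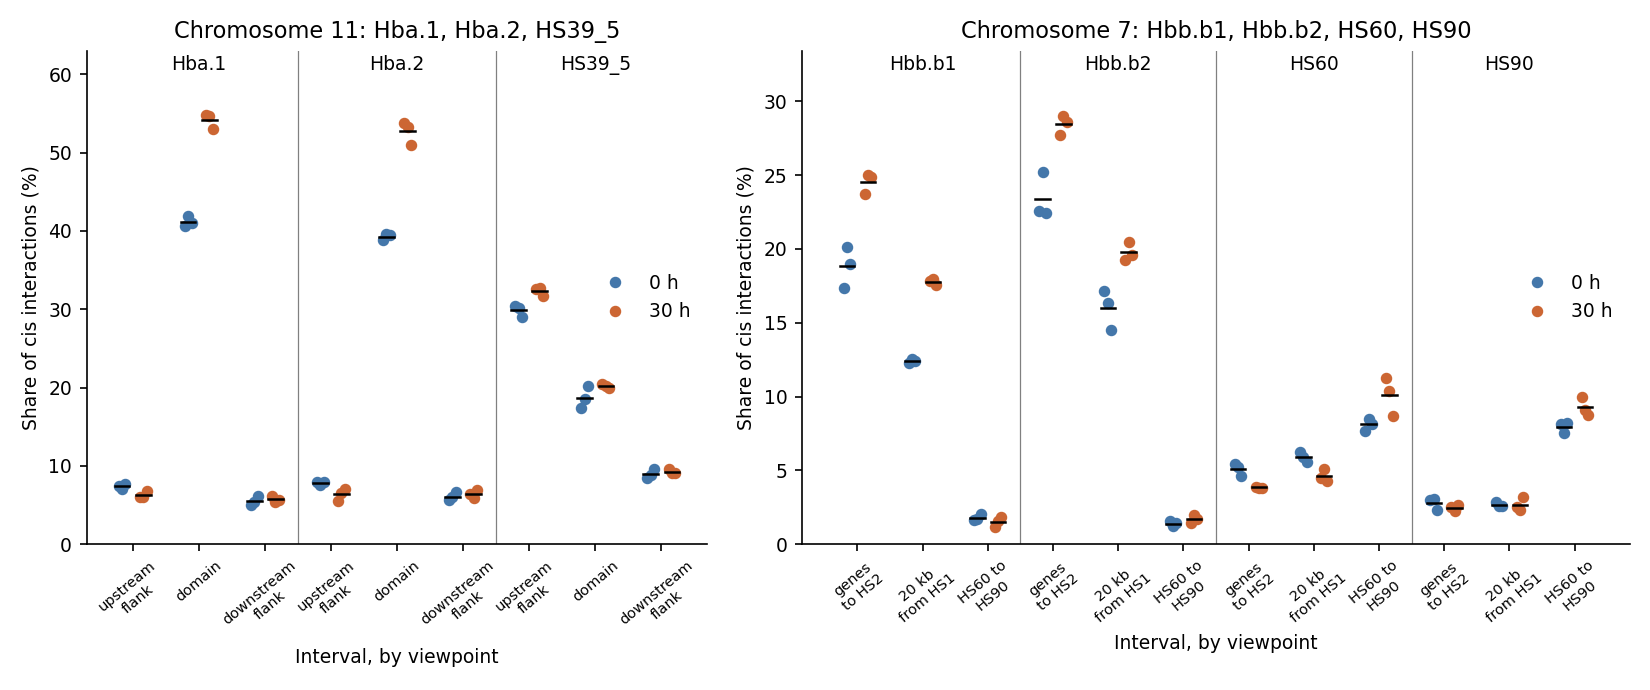
Percentage of cis interactions in the α-globin domain and its flanks and in the β-globin intervals, with 1 point per replicate at 0 h and 30 h and a line at the mean. The α-globin domain goes from 41.2% to 54.2% from Hba.1 and overlaps between the times from HS39_5.

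To find where contacts changed, each viewpoint's chromosome was cut into 5 kb bins, and 1945 pairs of a viewpoint and a bin passed a minimum mean of 30 per 100000 cis interactions. With limma on log2 values, 20 were higher at 30 h at an adjusted p under 0.05 (1.03% of those tested) and 1 was lower (0.0514%). At an unadjusted p under 0.05 the numbers were 90 and 121. Without a test, 134 bins (6.89%) were higher and 171 (8.79%) lower without overlap between the times. All 21 called bins lay within 100 kb of their viewpoint, where 317 were tested. Between 100 kb and 1 Mb 0 of 1013 were called, although 108 of them were lower without overlap against 36 higher and their median log2 ratio was -0.34. Promoter windows of protein-coding genes and windows around the labelled sites gave 14 higher (5% of 280) and 1 lower (0.357%), with 33 higher (11.8%) and 37 lower (13.2%) without overlap.

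The 8 called bins of the α-globin viewpoints were 4 each from Hba.1 and Hba.2 and lay side by side from chr11:32175001 to 32195000, between the enhancers and Hba-a2. The bin of Hba-x, the embryonic α-like gene, had 5431, 5839 and 5611 interactions per 100000 cis from Hba.1 at 0 h and 8502, 7707 and 9130 at 30 h. Its log2 ratio was 0.58 (SE 0.098, limma adjusted p = 3.19e-06). From Hba.2 the bin of Hbq1b, a θ-globin gene between the adult genes, had 4146, 5137 and 5065 at 0 h and 7386, 7496 and 7514 at 30 h. Its log2 ratio was 0.65 (SE 0.10, limma adjusted p = 1.33e-06), and from Hba.1 the same bin rose by 0.63 on the log2 scale. Both genes were in contact with the adult genes at 0 h and rose further by 30 h. The bin between Hbq1b and Hba-a2 rose by 0.70 from Hba.1 and 0.73 from Hba.2. The bin of Hba-a1 itself, chr11:32180001-32185000, rose by 0.60 and 0.65, but 36.3% of its 32-base words recur within 1 Mb, as do 19.9% in the Hbq1b bin and 0.986% in the Hba-x bin, so part of its reads may belong to the other copy.

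At the enhancers the windows of R2 and its neighbour E rose, while the 5 kb bin that holds both fragments was not called. That bin, chr11:32150001-32155000, had log2 ratios of 0.27 from Hba.1 and 0.38 from Hba.2 (limma adjusted p = 0.337 and 0.0661). The R2 window had 2908, 3257 and 2577 interactions from Hba.2 at 0 h and 3901, 4408 and 3655 at 30 h, a log2 ratio of 0.45 (SE 0.12, limma adjusted p = 0.0403). From Hba.1 the R2 window had means of 3012 and 3948, a log2 ratio of 0.40 that did not pass (limma adjusted p = 0.0632). The call of R2 from Hba.2 was kept in 4 of 11 alternative settings that of E from Hba.2 in 11 of 11 and that of E from Hba.1 in 7 of 11. Window E, which overlaps that of R2 and an exon of Nprl3, rose by 0.48 from Hba.1 and by 0.66 from Hba.2 (limma adjusted p = 0.021 and 0.00343). R1 had log2 ratios of 0.02 from Hba.1 and 0.23 from Hba.2, neither called. The difference between R2 and R1 itself overlapped between the times from both genes (exact p = 0.3 and 0.5), so a difference in their gain was not shown.

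Sites at the ends of the domain were not called from the α-globin genes. The site Ex, upstream of HS39_5 in Nprl3 and Mpg, had 505 ± 12.01 from Hba.1 at 0 h and 388 ± 34.3 at 30 h, a log2 ratio of -0.38 (limma adjusted p = 0.416). The log2 ratio of R2 to Ex went from 2.57 ± 0.17 to 3.35 ± 0.15 from Hba.1 and from 2.62 ± 0.27 to 3.35 ± 0.25 from Hba.2, without overlap. The CTCF sites downstream, +44 and +48, had log2 ratios between -0.05 and 0.17 from the same viewpoints. At +48 the Hba.1 window had 350 ± 116 and 383 ± 62.6. The lower bin with the smallest p from Hba.2 lay over Rhbdf1, 83.7 kb upstream, at 762 ± 77.7 and 420 ± 228, and did not pass (limma adjusted p = 0.069).

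From HS39_5 0 of 225 bins and 0 of 25 windows were called. The bin of Rhbdf1, upstream and outside the domain, had 2191 ± 181 at 0 h and 3062 ± 160 at 30 h (log2 ratio 0.48, limma adjusted p = 0.0828). The bin of Hbq1a, next to Hba-a2, had 1253 ± 205 and 768 ± 239 (log2 ratio -0.73, limma adjusted p = 0.0915). R1 and R2 had 1033 ± 171 and 1022 ± 128, and 873 ± 134 and 878 ± 108. None of these passed the test, and at Hbq1a the SD at each time was over 200 interactions.

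**Figure D4:**
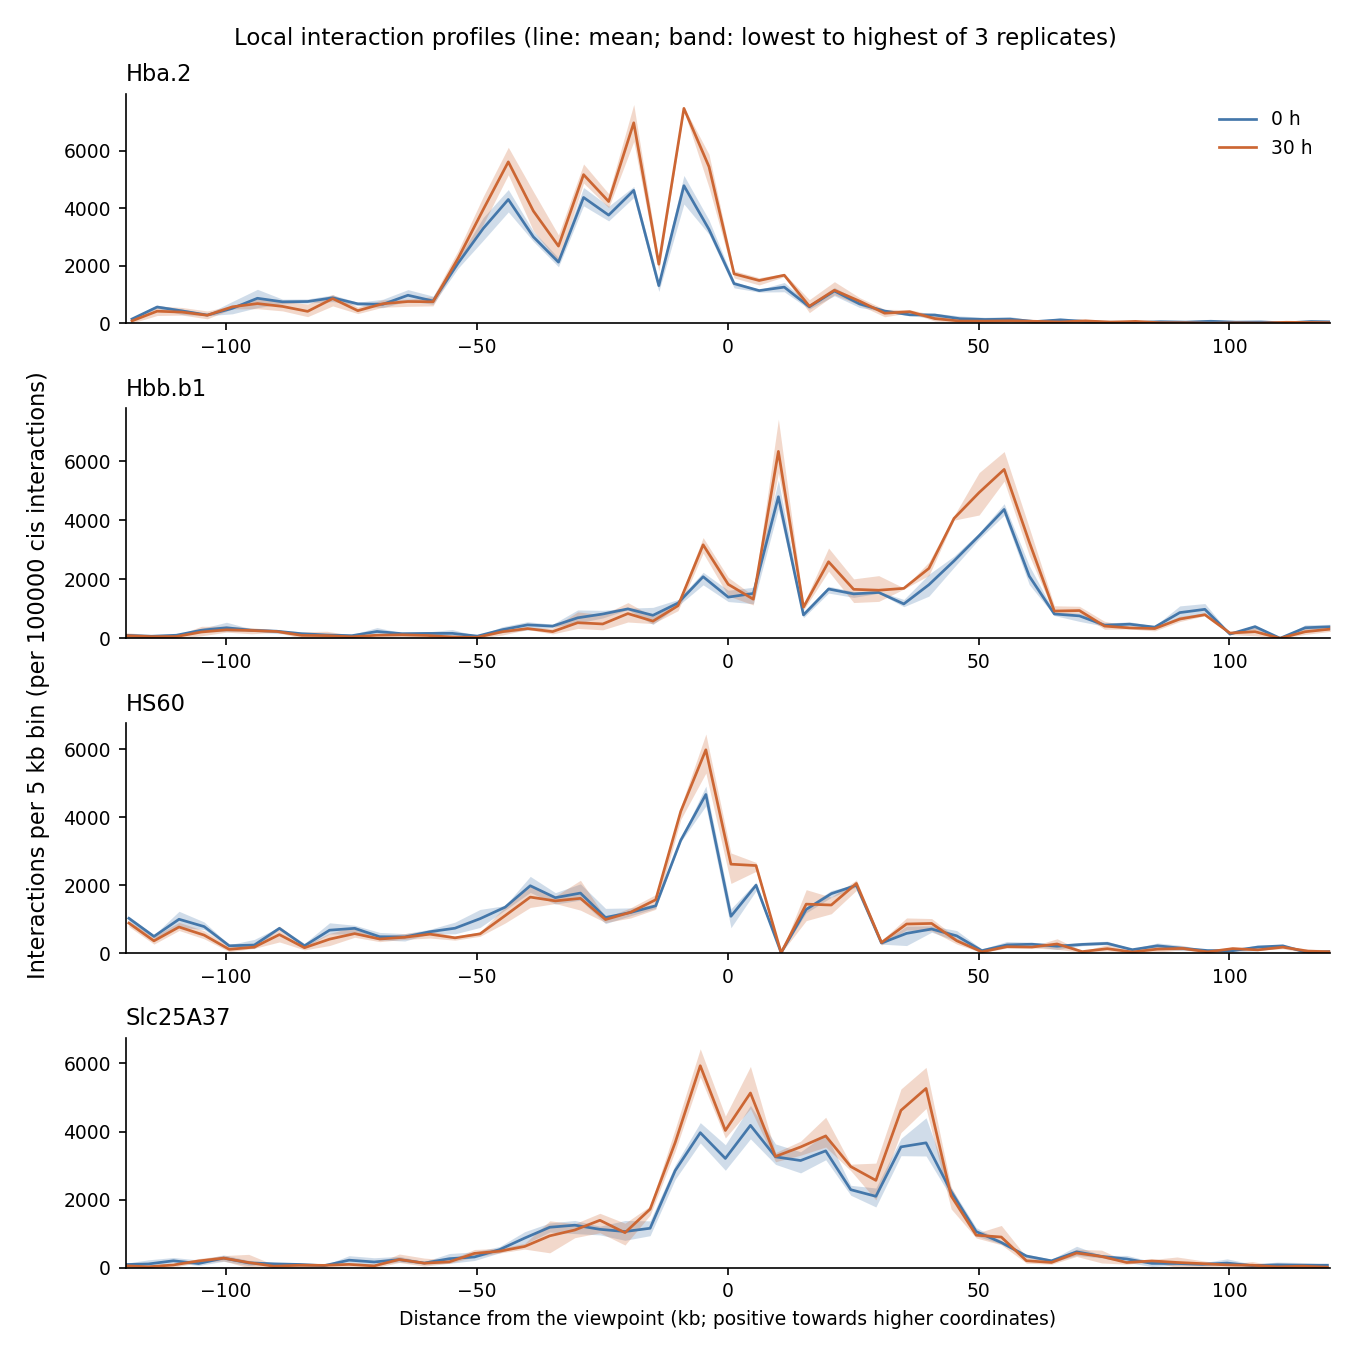
Interactions per 100000 cis in 5 kb bins against distance from 4 viewpoints, Hba.2, Hbb.b1, HS60 and Slc25A37, with the mean as a line and the lowest to highest of 3 replicates as a band at 0 h and 30 h. The Hba.2 bin that holds Hbq1b goes from 4783 to 7465 and the Hbb.b1 bin centred 45.1 kb away and holds HS1 from 2621 to 4062.

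As a share of cis interactions, the β-globin genes gained contact with the locus control region. As a share of all interactions, the local contacts of both β-globin viewpoints overlapped between the times, as given above. The 20 kb that begin at HS1 took 12.3%, 12.6% and 12.4% of cis interactions from Hbb.b1 at 0 h and 17.8%, 17.9% and 17.5% at 30 h. The spread was narrow at each time, but other 30 h libraries gave lower values from Hbb.b1, as given below. From Hbb.b2 the same 20 kb took 17.1%, 16.3% and 14.5% and then 19.3%, 20.5% and 19.6%. The 47.8 kb between the β-globin genes and HS2 went from 18.8% ± 1.37 to 24.5% ± 0.700 from Hbb.b1 and from 23.4% ± 1.56 to 28.5% ± 0.636 from Hbb.b2. The log2 ratio of the Hbb.b1 share to the Hbb.b2 share in this interval went from -0.31 ± 0.069 to -0.21 ± 0.013, without overlap (exact p = 0.1, adjusted p = 0.26). Within 100 kb the side of the locus control region went from 33.5% ± 1.38 to 42.9% ± 0.705 from Hbb.b1, and the other side overlapped at 9.50% and 8.71%.

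HS2, whose fragment carries the paired TGACTCA printed above, had 1705, 1700 and 1976 interactions per 100000 cis from Hbb.b1 at 0 h and 3659, 2918 and 2774 at 30 h. Its log2 ratio was 0.79 (SE 0.14, limma adjusted p = 0.00343). HS1 had 1690, 1578 and 1761 and then 2669, 2548 and 2714, a log2 ratio of 0.65 (SE 0.12, limma adjusted p = 0.00343). From Hbb.b2 the log2 ratios were 0.52 at HS2 and 0.49 at HS1 (limma adjusted p = 0.0269 each). No replicate of one time reached into the other at any of these 4 windows. The calls from Hbb.b1 were kept in 11 of 11 alternative settings, and those from Hbb.b2 in 5 of 11. The difference between HS2 and HS1 overlapped between the times from both genes (exact p = 0.4 and 0.8).

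Of the bins from Hbb.b1, 6 were higher and 0 lower, and of those from Hbb.b2 3 were higher and 0 lower. The bin chr7:111005001-111010000, which holds HS1 and HS2, was called from both, with 2621 ± 196 and 4062 ± 77.9 from Hbb.b1 (log2 ratio 0.63, limma adjusted p = 6.16e-04) and 3720 ± 51.1 and 5075 ± 359 from Hbb.b2 (0.44, limma adjusted p = 0.0234). From Hbb.b1 the next bin, and the one 60.1 kb away at chr7:111020001-111025000, rose by 0.50 and 0.63 on the log2 scale. Of the bins near the genes, chr7:110955001-110960000 rose by 0.60 and chr7:110980001-110985000 by 0.62 from Hbb.b1. The promoter window of the gene that GENCODE calls Hbb-b1, where the Hbb.b2 fragment lies, rose from 861 to 1588 from Hbb.b1 (log2 ratio 0.85, limma adjusted p = 0.036), a call kept in 5 of 11 settings, and 21.6% of its 32-base words recur within 1 Mb. The bin between the adult genes, chr7:110970001-110975000, was called from both viewpoints (0.40 each), and its direction turned when fragments within 5 kb of a viewpoint were left out.

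HS60 and HS90 lie among olfactory receptor genes of the Olfr family. HS60 had fewer contacts with the β-globin genes at 30 h, and both had a higher share in the interval from HS60 to HS90. The interval between the β-globin genes and HS2 took 5.46%, 5.21% and 4.63% of HS60 cis interactions at 0 h and 3.86%, 3.83% and 3.84% at 30 h. All 30 h values were below all 0 h values, and from HS90 the interval overlapped at 2.80% and 2.48%. The 20 kb from HS1 went from 5.91% ± 0.322 to 4.62% ± 0.421 at HS60, without overlap, and overlapped at HS90 with 2.68% at both times. The 31.0 kb from HS60 to HS90 went up from both ends, at HS60 with 7.70%, 8.48% and 8.15% and then 11.2%, 10.3% and 8.68%, and at HS90 with 8.14%, 7.54% and 8.22% and then 9.98%, 9.10% and 8.74%. From Hbb.b1 and Hbb.b2 this stretch took between 1.18% and 2.04% in every library and overlapped. From HS60 the promoter window of Olfr631, 1.73 kb away, rose from 1651 to 3451 interactions without overlap. That of Olfr632, 24.0 kb away, overlapped at 1981 and 2036. From HS90 the Olfr632 window, 6.11 kb away, overlapped at 3829 and 4251. A gain along the whole stretch was therefore not shown. Of the 21 shares of named intervals at both loci, 13 did not overlap, with a smallest adjusted p of 0.162 by exact permutation.

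In the bins, HS60 had the smallest adjusted p of all, in the bin of its own fragment. The bin chr7:111060001-111065000, which holds Olfr631, went from 1081 ± 296 to 2614 ± 493 (log2 ratio 1.29, SE 0.18, limma adjusted p = 8.64e-09). The promoter window of Olfr631 rose by 1.05 on the log2 scale (limma adjusted p = 0.00175) and that of Olfr65 from 3967 to 5187 (0.38, limma adjusted p = 0.0301), calls kept in 11 of 11 and 4 of 11 alternative settings. The bin chr7:111130001-111135000 was the 1 lower bin, at 253 ± 54.8 and 42.0 ± 21.5 (log2 ratio -2.42, limma adjusted p = 0.0102), and rests on 52, 53 and 68 NextSeq reads at 0 h and 5, 3 and 16 at 30 h. It was called in 9 of 19 alternative settings. The promoter window of Olfr67 was the 1 lower window, with a log2 ratio of -0.65 (limma adjusted p = 0.0457), a call kept in 3 of 11 settings. From HS90 0 of 315 bins and 0 of 61 windows were called, and the higher bin with the smallest p, that of Olfr633 beside the viewpoint, had 3515 and 4599 (limma adjusted p = 0.0986). From HS60 to HS2 and HS1 the log2 ratios were -0.78 and -0.53, and neither passed (limma adjusted p = 0.268 and 0.416).

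**Figure D5:**
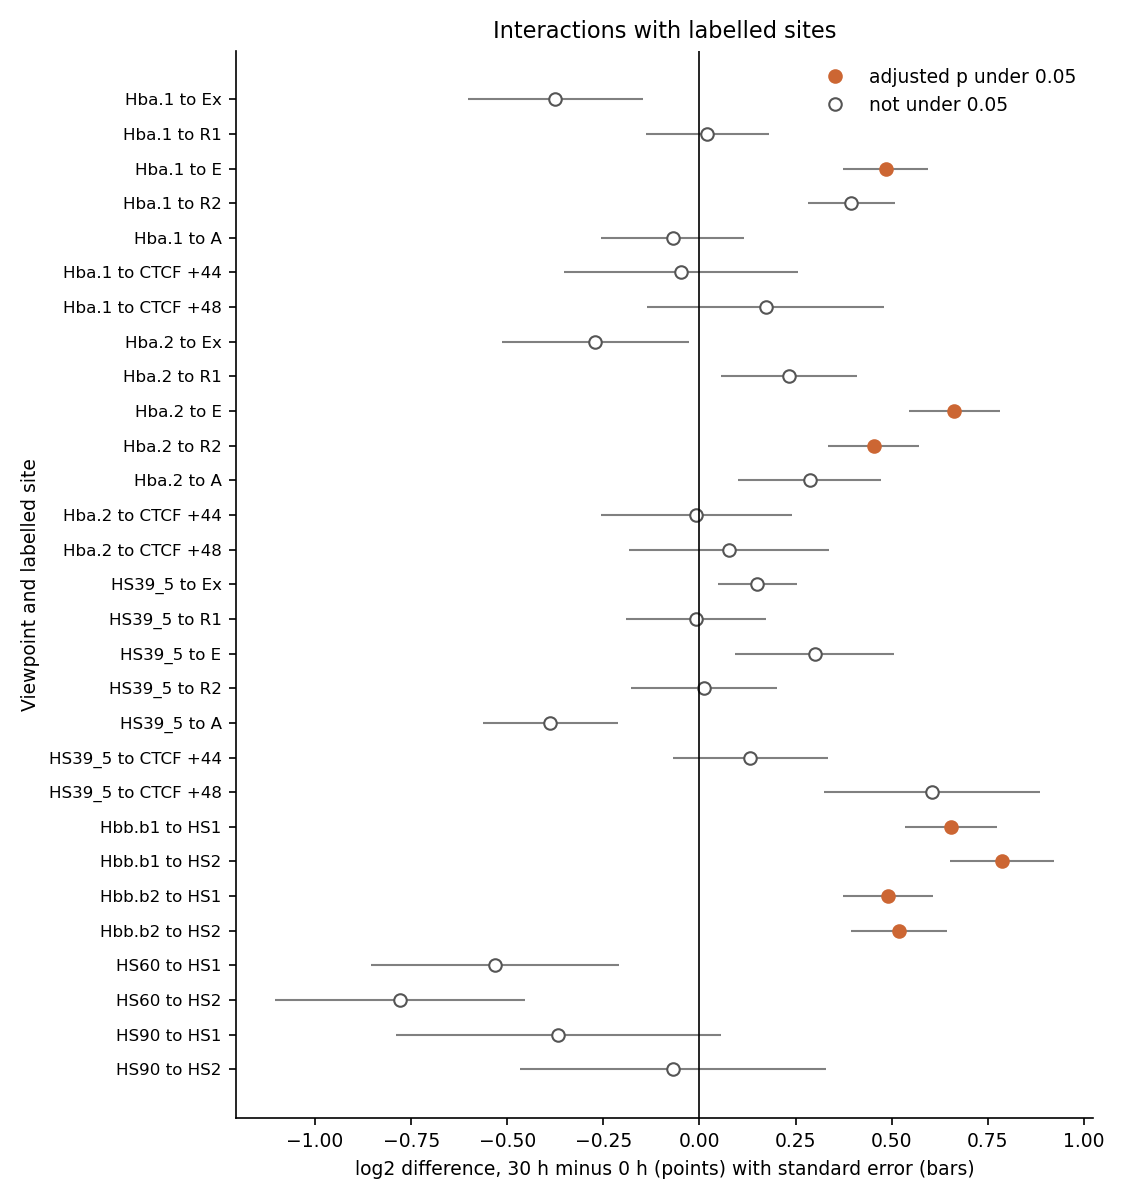
Log2 ratio of 30 h to 0 h, with its SE from limma on 3 replicates a time, for labelled sites on each viewpoint's chromosome. From Hbb.b1 HS2 and HS1 stand at 0.79 and 0.65, from Hba.2 R2 and R1 at 0.45 and 0.23, and no site from HS39_5, HS60 or HS90 is called.

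Slc25A37, on a chromosome with no globin gene, gained on both sides within 100 kb, from 19.2% ± 0.565 to 22.6% ± 0.834 on the lower-coordinate side and from 31.7% ± 1.08 to 37.1% ± 1.85 on the other. Of its 241 bins 2 were higher and 0 lower. The bin chr14:69895001-69900000, inside the gene, went from 3967 ± 298 to 5934 ± 437 (log2 ratio 0.58, limma adjusted p = 1.2e-04). The bin chr14:69940001-69945000, 39.5 kb away and without an annotated gene, went from 3670 ± 637 to 5266 ± 604 (log2 ratio 0.53, limma adjusted p = 0.00247). The promoter windows of D930020E02Rik and Entpd4, both within 100 kb, were not called, and D930020E02Rik had 3258 and 3270.

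Other libraries of MFL 30 h cells in the series allow the levels at 30 h to be set beside these. In 3 wild type libraries captured with the panel used for erythroblasts lacking the R1 and R2 enhancers, the α-globin domain took 53.5% to 58.4% of cis interactions from Hba.1 and 50.0% to 54.7% from Hba.2, and local shares were 64.9% to 69.6% at Hba.1 and 57.8% to 64.4% at Slc25A37. All of these lay above the 0 h values. The labels of these 3 libraries do not list Slc25A37, HS60 or HS90 among their viewpoints, although the deposited columns exist. From HS90 their median distance was 231 to 329 kb, with a mean of 265 kb below that of 0 h, so the longer distance of the MFL 30 h replicates was not seen there. From HS60 the interval between the β-globin genes and HS2 took 3.73% to 4.76%, and the 20 kb from HS1 took 4.74% to 5.80%. Both ranges overlap the 0 h replicates. The untreated library of the transcription inhibitor experiment, a single one, had 45.9% from Hba.1 and 44.5% from Hba.2 in the domain, above each 0 h replicate and below each 30 h replicate, and a local share of 49.0% at Slc25A37, below each 0 h replicate. From Hbb.b1 the interval between the β-globin genes and HS2 took 19.8% to 25.7% in the 3 libraries, a range that reaches the highest 0 h replicate of 20.1%. The 20 kb from HS1 took 14.6% to 15.0% from Hbb.b1 in the 3 libraries, above each 0 h replicate and below each MFL 30 h replicate. From Hbb.b2 this stretch took 20.9% to 23.7%, above each MFL 30 h replicate. The untreated library had 13.1% and 17.5% there, above each 0 h replicate and below each MFL 30 h replicate. These libraries were made with other panels, and whether they share cultures with the others is not given in the sources used here.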

How the data were processed

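NG Capture-C libraries were made by the authors from cells fixed in formaldehyde, by DpnII digestion, ligation and double oligonucleotide capture. Per the labels, reads were trimmed with Trim Galore and aligned with Bowtie to mm9 (versions not given in the sources used here). The authors deposited reads per restriction fragment as RPM-like values, per 100000 reporter reads of a viewpoint. Whole reads were recovered from them within a tolerance of 0.1. Fragments within 1 kb of any viewpoint were left out, values were scaled to 100000 cis interactions, and runs were averaged. The floor for a value of 0, taken as 3 reads, corresponded to between 5.57 and 165 per 100000 cis in the NextSeq runs and to between 27.7 and 578 in the MiSeq runs, which covers counting error only. Shares were compared by the exact permutation test, two-sided, over 20 arrangements. Bins and windows were compared with limma 3.58.1 (R 4.3.3) on log2(value + 10), with Benjamini-Hochberg adjustment, so fold changes of low bins are understated. Promoter windows span 2.5 kb to each side of a start within 500 kb of a viewpoint, and site windows add 1 kb. edgeR 4.0.16 and DESeq2 1.42.0, the latter named in the study's methods, were alternatives on recovered NextSeq reads of each viewpoint. Named sites were the viewpoints, the sites with coordinates in the labels, promoters with the highest means within 100 kb, and, per viewpoint and direction, the bin with the smallest p. Further called bins and windows were named after their values were seen. Members, lists and tests were chosen with earlier results of these data known. In simulated data with 2363 bins, limma recovered 12.5% of 2-fold gains, 8.89% of 2-fold losses, 38.3% of 4-fold gains and 41.3% of 4-fold losses, and called 0% of unchanged bins. Replicates are separate in the labels, and the exact p-values measure the spread between them. The limma p-values and SEs also draw on a variance trend pooled over all bins or windows, among which paired viewpoints are not independent. A small limma p-value therefore does not stand for the spread of the 3 replicates of a bin alone. Genes came from GENCODE of the same build.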

Additional observations from a re-analysis of the deposited data

How the results depend on the processing

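The 30 h libraries had fewer reads, and no share can pass 0.05 with 3 replicates a time. Changes of 2-fold were recovered in few simulated bins. Depth was not varied in that simulation, so the part that depth plays was not tested. The gains of Hba.1, Hba.2, Hbb.b1, Hbb.b2, HS90 and Slc25A37 in local share and of the globin genes in their domains kept their direction in every setting run. Directions turned, on the scale of 30 h minus 0 h in percentage points or kb, with the NextSeq run alone for cis share at HS60 (0.760) and Slc25A37 (0.430) and median distance at HS60 (12.9 kb). They turned with the MiSeq run alone for cis share at HS90 (-3.54) and its 20 kb from HS1 (0.123). They turned with 5 kb left out for HS39_5 in the α-globin domain (-0.405), HS90 in cis share (-0.121) and in the 20 kb from HS1 (0.0582), median distance at HS60 (70.1 kb) and the bin at chr7:110970001 from Hbb.b1 (log2 -0.16) and Hbb.b2 (-0.83). They turned within 1 Mb for the downstream flank from Hba.1 (-0.778) and Hba.2 (-0.697) and the 20 kb from HS1 at HS90 (0.201). As deposited they turned for that flank from Hba.1 (-0.0790) and HS39_5 (-0.227), local share at HS39_5 (-0.281) and HS60 (-0.0484), and the 20 kb from HS1 at HS90 (0.0286). The cause of each was not tested. Leaving out 1 library gave ranges that span 0 for cis share at HS90 (-2.39 to 2.64) and Slc25A37 (-2.999 to 1.64), median distance at HS60 (-19.5 to 20.4 kb), the 20 kb from HS1 at HS90 (-0.262 to 0.170) and the downstream flank at Hba.1 (-0.0475 to 0.521). Alternatives for median distance were added after seeing the data.

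Bins called higher were 10 with the MiSeq run alone, 9 with a pseudocount of 1, 41 with no filter, 8 as deposited, 12 scaled within 1 Mb, 13 with edgeR and TMM, 23 with edgeR without TMM and 24 with DESeq2, against 20. Bins called lower were 0 with the NextSeq run alone, a pseudocount of 1, a minimum of 10 or no filter, 6 in bins of 2 kb, 2 with a fit for each viewpoint, within 1 Mb or with edgeR and TMM, and 3 with edgeR without TMM and with DESeq2. Without 1 library, 9 to 16 bins were higher and 0 to 4 lower. The higher count was 9 without 0 h replicate 1, 12 without 0 h replicate 3 and 11 without 30 h replicate 1 or 3. Windows called higher were 7 with the MiSeq run alone and 8 to 11 without 1 library, the lowest without 30 h replicate 2, and 9 without 0 h replicate 3, 30 h replicate 1 or 30 h replicate 3. Windows called lower were 0 with either run alone and 0 to 1 without 1 library. Over all alternatives, calls were kept in 266 of 395 values for the 21 bins and in 118 of 165 for the 15 windows. The bins of HS60 at chr7:111060001, of Hba-x from both α-globin viewpoints and of Hbq1b from Hba.2 were called in each setting in which they were tested. That of HS60 lies within 5 kb of its viewpoint, so it could not be tested with 5 kb left out. No window was tested in that setting. The bin chr7:110960001 from Hbb.b2 was called in 1 of 18.

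Replicate numbers are shared between the times, and whether they pair the samples was not settled. Deviations of same-numbered samples over the bins correlated at -0.0457, -0.0305 and -0.000544, which cannot exclude a pairing. Replicate 3 had the most NextSeq reads and the highest cis share from Hba.1 at both times. With the replicate block 22 bins were higher and 1 lower, and 19 windows were higher and 1 lower. For shares the smallest p with this block is 0.25 by exact permutation, and the local share of Hba.1 then differed by 12.3 points.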

Other observations

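Farther along chromosome 11, the fragments labelled Cpeb4 and Chac2 were also read from the α-globin genes. The Cpeb4 window had 75.4 ± 3.63 interactions per 100000 cis from Hba.1 at 0 h and 146 ± 25.9 at 30 h, and 108 ± 24.6 and 167 ± 49.7 from Hba.2. Neither difference passed (limma adjusted p = 0.379 and 0.469), and 3 reads of a 30 h NextSeq run were worth up to 76.4 such interactions at Hba.1 and 88.1 at Hba.2.

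Contacts between the loci rested on few reads. Reads at another locus were counted in a window 250 kb wide, centred on Hba.1, Hbb.b1 or Slc25A37. The NextSeq libraries held between 0 and 20 such reads per viewpoint at 0 h, with a median of 1 over 48 values of which 19 were 0. At 30 h they held between 0 and 7, with a median of 1 and 23 of 48 at 0. Reads on other chromosomes numbered 4825 to 31221 per viewpoint at 0 h and 1893 to 11365 at 30 h. The highest value, 20 reads, was that of Hbb.b1 at the Slc25a37 locus in 0 h replicate 1. These counts were not set against a background share, and whether they exceed it was not tested.

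Viewpoints also differed between the times in their part of the reporter reads. In the NextSeq run the reads of Hbb.b1 divided by those of Hbb.b2 in the same library were 1.54, 1.61 and 1.09 at 0 h and 0.694, 0.735 and 0.714 at 30 h. In the MiSeq run they were 1.23, 1.26 and 1.00 and then 0.623, 0.646 and 0.639. Neither run overlapped (exact p = 0.1 each), and the reads of Hba.2 divided by those of Hba.1 overlapped in both, between 0.790 and 0.864. The shares above are taken within a viewpoint and do not use these ratios. Reads of a pair may be assigned to either viewpoint, so the part of the partner's reads in a column may differ between the times. Whether this moved the shares was not tested.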
